A study of Homo sapiens with 6 samples.

Results

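The USP genes encode ubiquitin-specific proteases, and their transcripts were followed in Huh7, a long-established line of human liver cancer cells, with TRIM15 knocked down. Members were all protein-coding genes outside chromosome Y whose symbol is USP followed by a number, leaving out the multicopy USP17L genes. The rule gave 52 of the 58735 genes in the deposited table. One of them, USP6NL, fits only by its symbol, since it encodes a GTPase-activating protein for Rab proteins. The libraries were 3 labelled shTRIM15 (knockdown of TRIM15 by a short hairpin RNA) and 3 labelled shcontrol (a control hairpin), all of Huh7 cells grown in RPMI-1640 with added fetal bovine serum. The number of hairpins, their sequences and whether the replicates are separate cultures are not given in the sources used here. The p-values therefore measure only the spread between these libraries, which may be technical. The comparison asks how transcript levels differ when TRIM15, a tripartite motif protein of the E3 ubiquitin ligase type, is reduced.

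Ubiquitin is a small protein that ligases attach to other proteins, singly or as chains, as a mark for degradation, sorting or signalling. USP enzymes are cysteine proteases that cut ubiquitin off again, and they form the largest family of human deubiquitinases. Many work only in a complex. USP1, USP12 and USP46 need the scaffold protein UAF1 (gene WDR48), USP22 is a subunit of the SAGA transcription coactivator, and USP14 sits on the proteasome. Several members have a close paralogue, such as USP4 with USP15 and USP11.

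TRIM15 had 3.23, 2.11 and 2.51 FPKM (read number per unit of gene length, scaled to the size of each library) in shTRIM15 libraries, against 5.17, 5.09 and 4.88 FPKM in shcontrol libraries. TRIM15 changed by -0.75 on the log2 scale (SE 0.106, adjusted p = 0.00416), so the labels and the targeted gene go together. Reads per library, counted back from the FPKM values, were 17332508 to 19556855 in shTRIM15 and 17715210 to 18217903 in shcontrol. The USP genes took 55444 to 63558 of them in shTRIM15 and 57446 to 59334 in shcontrol. The 8 hepatocyte markers summed to 1519.5 to 1551 FPKM in shTRIM15 and 1527 to 1568 FPKM in shcontrol, and 2 of them, TF and FGB, were lower. Of 5 fibroblast markers, 3 were tested. Of these, 2 (LUM and COL1A2) were lower and COL1A1 did not pass (log2 fold change 0.00721). The list summed to 55.3 to 57.5 FPKM in shTRIM15 and 62.3 to 66.0 FPKM in shcontrol. Endothelial markers summed to 0.251 to 0.398 FPKM in shTRIM15 and 0.307 to 0.433 FPKM in shcontrol, with CDH5 at 0. Immune markers summed to 16.4 to 17.9 FPKM in shTRIM15 and 16.2 to 17.7 FPKM in shcontrol, and none of the 2 tested passed. The TF and COL1A2 calls were lost in 5 and 6 of the 6 fits with 1 library left out, and those of FGB and LUM in 0. The part of these marker levels in the results was not tested. All libraries are of the Huh7 line, so the lists name transcripts and do not show that other cell types were present. In bulk RNA, fewer cells with a transcript and less of it per cell cannot be told apart.

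Of the 52 USP genes, 44 reached 0.5 FPKM in at least 3 libraries and were tested. Between shTRIM15 and shcontrol libraries 5 rose (USP4, USP21, USP54, USP19 and USP22), 2 fell (USP46 and USP48) and 37 did not pass an adjusted p of 0.05. The 7 that passed were 15.9% of the tested USP genes, beside 19.0% of all 14847 tested genes. By direction, 11.4% of the USP genes were higher and 4.55% lower, beside 8.93% and 10.1% of all genes. The share of the family that passed was thus near the background. The calls were 2 lower and 5 higher. Of the 44 tested USP genes, 28 had a log2 fold change below 0 and 16 above 0. The median log2 fold change was -0.04 over the tested USP genes and 0.00143 over all genes. The median size of the change, whatever its sign, was 0.08 for USP genes and 0.10 for all genes. USP46 stood far from the rest, as the plot of changes by gene shows.

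**Figure D1:**
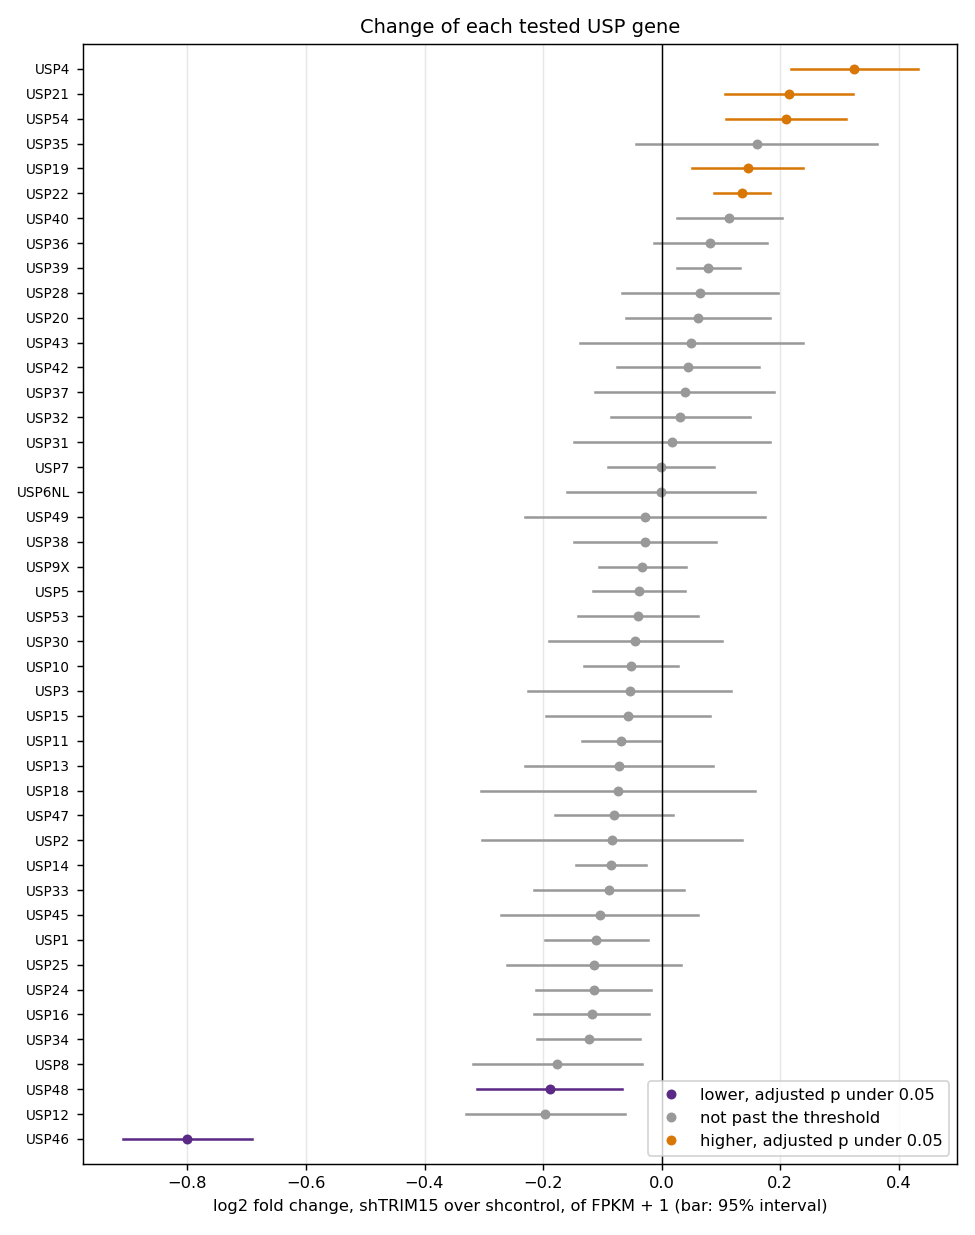
Change of each of the 44 tested USP genes as the log2 fold change of FPKM + 1, shTRIM15 over shcontrol (x axis), with its 95% interval as a bar and genes ordered by change. USP46 lies at -0.80, and the genes that did not pass lie between -0.20 and 0.16.

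The shTRIM15 and shcontrol values did not overlap for 20 tested USP genes, of which 12 were lower and 8 higher in shTRIM15. Over all tested genes 37.8% did not overlap, 19.0% lower and 18.8% higher. Among the 37 genes that did not pass, 10 had an unadjusted p under 0.05, of which 8 were lower and 2 higher. The share over all tested genes at that unadjusted threshold was not counted, so this split is not read as a trait of the family. The lowest adjusted p was 0.0518, of USP39. The 95% intervals of the 37 together ran from -0.33 to 0.36 on the log2 scale. A precision-weighted fit on the whole reads (voom) put 14 USP genes past the threshold, or 31.8%, with 6 higher and 8 lower. The same fit put 27.4% of all genes past it, 12.9% higher and 14.5% lower.

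**Figure D2:**
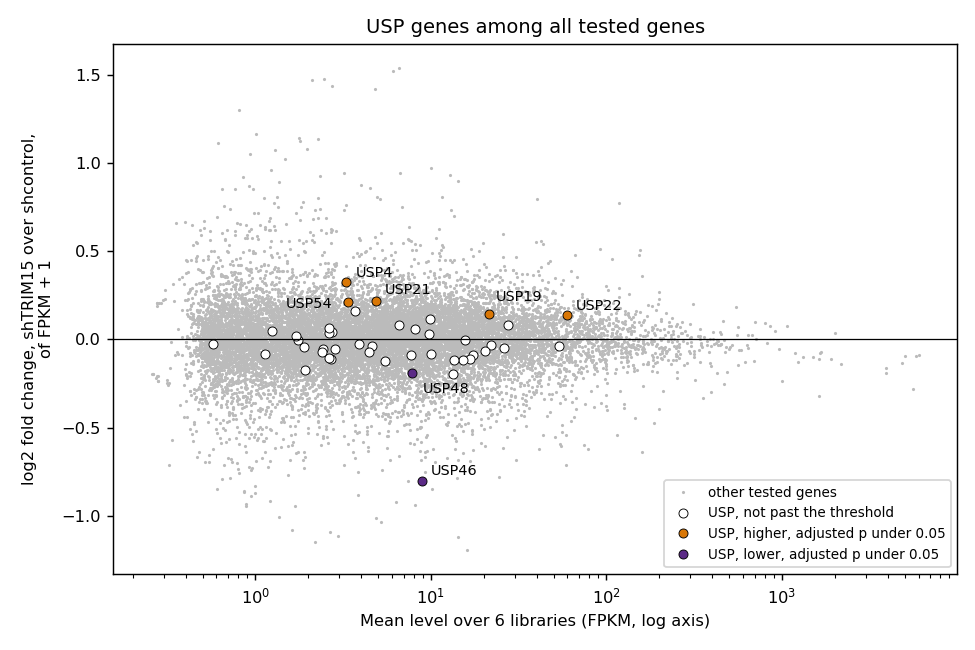
Change (y axis, log2 fold change of FPKM + 1, shTRIM15 over shcontrol) against mean level (x axis, FPKM, log axis) of all 14847 tested genes (grey) and the 44 tested USP genes (circles). USP46 lies at the lower edge of the grey cloud at its level, and the other USP genes lie within it.

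Among the UAF1-dependent enzymes USP46 fell, with a log2 fold change of -0.80, while USP1 and USP12 did not pass. TRIM15 itself was at -0.75 on this scale of FPKM + 1, which understates the change of low genes. By means TRIM15 was at 51.8% of shcontrol and USP46 at 53.8%, and voom gave -0.97 for TRIM15 and -0.89 for USP46. USP46 is a deubiquitinase that needs both UAF1 and the second cofactor WDR20 for full activity, and it is known to act on the phosphatases PHLPP1 and PHLPP2 and on synaptic glutamate receptors. The gene lies on the minus strand at chr4:52590972-52659335 (GRCh38). Its level was 6.13, 6.61 and 5.90 FPKM in shTRIM15 libraries, against 11.2, 11.7 and 11.8 FPKM in shcontrol libraries. Every shTRIM15 library was well below every shcontrol library. The means were 6.21 ± 0.362 FPKM in shTRIM15 and 11.6 ± 0.341 FPKM in shcontrol (SD, n = 3 each), a level of 53.8% of shcontrol. On the log2 scale the fold change was -0.80 (SE 0.0459, 95% interval -0.91 to -0.69, adjusted p = 0.000186).

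The depth behind USP46 was 1031, 1164 and 923 reads in shTRIM15 and 1800, 1838 and 1912 reads in shcontrol. The upper counting limit of the highest shTRIM15 library, 1233 reads, lay below the lower limit of the lowest shcontrol library, 1718 reads (exact Poisson 95%). Of 14847 tested genes, USP46 had the 24th lowest log2 fold change of FPKM + 1, and of 11652 protein-coding ones the 4th lowest. These ranks hold for that scale only, which understates the change of low genes. TRIM15, which was lower than USP46 by percent of shcontrol and with voom, ranked behind it. Within the family it was 21st by level in shTRIM15 and 14th in shcontrol. The fall passed in all 14 alternative fits, with log2 fold changes of -0.89 to -0.77.

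The region around the USP46 start is shown because the gene with the largest change in the family shares it with another transcript. It runs from 250 bases before to 50 bases after the RefSeq start (GRCh38.p14), at chr4:52659252-52659551 on the minus strand. It reads 5′ to 3′ along the gene, and capitals mark the GC box (GGGCGG or its complement CCGCCC), the letters bound by Sp1-type factors. The USP4 window, chr3:49340004-49340303 on the minus strand, is the same stretch around the RefSeq start of the USP gene with the largest rise. The GENCODE gene starts further upstream, 34 bases before the RefSeq start for USP46 and 659 bases before it for USP4, so the USP4 window lies wholly inside the gene as GENCODE draws it.
USP46: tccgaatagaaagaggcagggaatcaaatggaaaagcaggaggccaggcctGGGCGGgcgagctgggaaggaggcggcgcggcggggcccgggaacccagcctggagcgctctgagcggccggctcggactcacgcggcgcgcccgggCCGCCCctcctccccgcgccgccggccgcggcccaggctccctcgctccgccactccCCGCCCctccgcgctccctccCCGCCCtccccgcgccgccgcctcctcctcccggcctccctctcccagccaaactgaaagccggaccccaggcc
USP4: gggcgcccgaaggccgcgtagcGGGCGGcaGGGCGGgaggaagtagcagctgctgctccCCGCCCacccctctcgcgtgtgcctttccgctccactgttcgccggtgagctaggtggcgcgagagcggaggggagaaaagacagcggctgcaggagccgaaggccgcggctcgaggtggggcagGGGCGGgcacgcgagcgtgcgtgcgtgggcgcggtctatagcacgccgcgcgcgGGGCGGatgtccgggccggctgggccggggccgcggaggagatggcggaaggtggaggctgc
The USP46 window holds 4 GC boxes, 36 CpG pairs and 76.7% G and C. The USP4 window holds 5 GC boxes, 41 CpG pairs and 75.0% G and C. The 2 windows are alike in these features, and the GC box was in 32 of the 40 USP windows matched. Whether these features bear on either change was not tested.

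USP46-AS1, a long noncoding RNA, starts 71 bases from USP46 on the other strand, and both annotated starts lie within the window printed for USP46, at its bases 217 (USP46) and 146 (USP46-AS1). It had 8.65, 8.16 and 8.43 FPKM in shTRIM15 and 6.97, 7.30 and 8.67 FPKM in shcontrol. The groups overlapped, and the log2 fold change was 0.13 (adjusted p = 0.285). The ratio of USP46 to USP46-AS1 was 0.709, 0.809 and 0.700 in shTRIM15 and 1.60, 1.60 and 1.36 in shcontrol. All 3 shTRIM15 ratios were below all 3 shcontrol ratios (2-sided exact permutation p = 0.1, the smallest that 3 against 3 allows). USP46 was picked for its fall in these same libraries, so the ratio restates that fall and is not a further test of it. The library kit marks strand, but the sources used here do not say whether counting used it.

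USP12, the closest paralogue of USP46, acts with the same cofactors. It had 12.1, 13.5 and 11.8 FPKM in shTRIM15 and 13.7, 15.1 and 14.5 FPKM in shcontrol. The groups did not overlap, but the highest shTRIM15 and the lowest shcontrol library were close. Its log2 fold change of -0.20 (SE 0.0568) missed the threshold with an adjusted p of 0.0545, and it passed in 4 of the 14 alternative fits. USP1, which removes ubiquitin from the DNA repair proteins FANCD2 and PCNA, had 16.0, 15.9 and 16.3 FPKM in shTRIM15 and 17.8, 16.5 and 18.0 FPKM in shcontrol. It was at -0.11 on the log2 scale (SE 0.0367, adjusted p = 0.0822), with no overlap.

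The 3 transcripts summed to 34.2, 36.0 and 34.0 FPKM in shTRIM15 and 42.6, 43.3 and 44.2 FPKM in shcontrol. USP46 made up 17.9%, 18.4% and 17.3% of that sum in shTRIM15 and 26.2%, 27.0% and 26.7% in shcontrol. Its share of the trio was smaller in every shTRIM15 library. Against USP12 alone, the ratio of USP46 was 0.507, 0.490 and 0.501 in shTRIM15 and 0.818, 0.776 and 0.817 in shcontrol (exact permutation p = 0.1, the smallest possible). Against USP1 it was 0.383, 0.416 and 0.361 in shTRIM15 and 0.627, 0.706 and 0.658 in shcontrol (exact permutation p = 0.1). The share and both ratios restate the fall for which USP46 was picked, and they add no separate test.

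The cofactor genes did not pass. WDR48, which encodes UAF1, had 8.54, 8.76 and 8.14 FPKM in shTRIM15 and 8.38, 8.46 and 8.27 FPKM in shcontrol (log2 fold change 0.02, adjusted p = 0.801). WDR20 was at 0.08 (adjusted p = 0.426) and its relative DMWD at -0.05 (adjusted p = 0.653). Of the known USP46 substrates, picked after their values were seen, PHLPP2 fell and PHLPP1 did not pass. PHLPP2 had 4.22, 4.10 and 4.15 FPKM in shTRIM15 and 5.04, 5.38 and 4.79 FPKM in shcontrol (log2 fold change -0.23, SE 0.0476, adjusted p = 0.0165). PHLPP1 had 2.67, 2.49 and 2.42 FPKM in shTRIM15 and 2.14, 2.22 and 1.95 FPKM in shcontrol (log2 fold change 0.18, adjusted p = 0.0772). The PHLPP2 call was lost without shTRIM15 library 2 (adjusted p = 0.0559) or 3 (0.0548) and with the replicate number as a block (0.0502), and PHLPP1 passed with voom (0.00720). These are transcript levels, and protein was not measured.

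**Figure D3:**
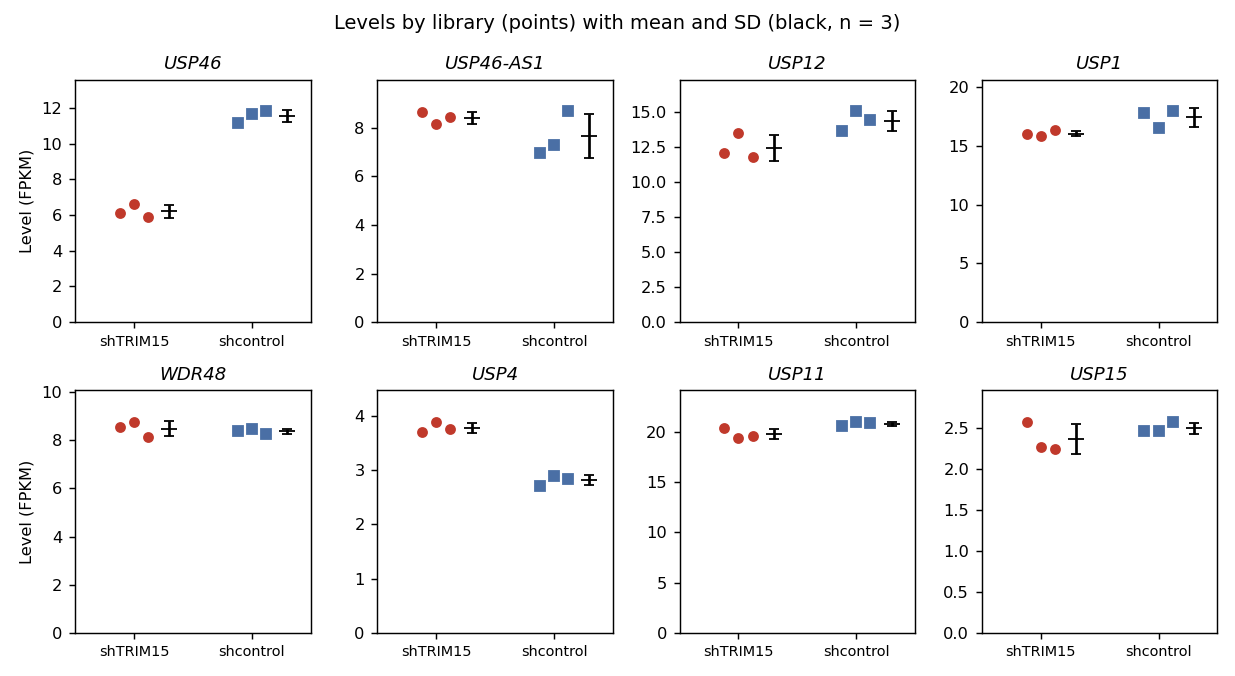
Level (y axis, FPKM from 0) of 8 genes in each shTRIM15 (circles) and shcontrol (squares) library, with the mean and SD of 3 libraries in black. USP46 averages 6.21 FPKM in shTRIM15 and 11.6 FPKM in shcontrol, while USP46-AS1 and WDR48 overlap between groups. USP4 is higher in every shTRIM15 library, and USP15 overlaps.

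USP4 had the largest rise of the family, whereas its paralogues USP11 and USP15 did not pass. USP4 is known to stabilise the type I TGF-beta receptor and splicing and signalling proteins, and it shares its domain layout with both paralogues. It lies at chr3:49277831-49340712 on the minus strand. Its level was 3.70, 3.89 and 3.76 FPKM in shTRIM15 and 2.72, 2.89 and 2.85 FPKM in shcontrol, with no overlap. The means were 3.78 ± 0.0975 FPKM in shTRIM15 and 2.82 ± 0.0914 FPKM in shcontrol (SD, n = 3 each), a linear rise of 34.2%. On the log2 scale USP4 changed by 0.33 (SE 0.0452, adjusted p = 0.00399), and it passed in all 14 alternative fits at 0.31 to 0.42. The reads behind it were 465, 512 and 439 in shTRIM15 and 327, 340 and 344 in shcontrol.

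USP11, an X-linked enzyme linked to DNA repair, had 20.4, 19.4 and 19.5 FPKM in shTRIM15 and 20.5, 21.0 and 20.8 FPKM in shcontrol, with no overlap (log2 fold change -0.07, adjusted p = 0.139). USP15, known for SMAD and COP9 signalosome-linked roles, had 2.57, 2.27 and 2.25 FPKM in shTRIM15 and 2.46, 2.46 and 2.57 FPKM in shcontrol (log2 fold change -0.06, adjusted p = 0.562). The ratio of USP4 to USP15 was 1.44, 1.72 and 1.67 in shTRIM15 and 1.10, 1.18 and 1.11 in shcontrol. The ratio of USP4 to USP11 was 0.182, 0.200 and 0.192 in shTRIM15 and 0.132, 0.138 and 0.137 in shcontrol. Both ratios were higher in every shTRIM15 library (exact permutation p = 0.1 each, the smallest possible). As USP4 was picked for its rise in these same libraries, the ratios restate that rise and add no separate test.

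A list of 6 enzymes that act on histones held USP3, USP16, USP21, USP22, USP44 and USP49. Of these, USP22 and USP21 rose and the other 3 tested did not pass. The list does not hold every such enzyme, since USP48, described further below, is tied to H2A and fell. USP22 removes ubiquitin from histones H2A and H2B as part of SAGA. It was the most abundant USP transcript, with 62.0, 62.6 and 62.1 FPKM in shTRIM15 and 55.9, 56.4 and 57.4 FPKM in shcontrol. The values within each group lay close together and the groups were well apart. Means were 62.2 ± 0.343 FPKM in shTRIM15 and 56.5 ± 0.801 FPKM in shcontrol (SD, n = 3 each), a 10.0% rise with a log2 fold change of 0.14 (SE 0.0197, adjusted p = 0.00469). It passed in all 14 alternative fits, with adjusted p up to 0.0355. The other enzymes that can fill its place in the module were at or near 0. USP27X had 8, 6 and 9 reads in shTRIM15 and 8, 2 and 8 reads in shcontrol, and USP51 had 0 reads in all 6 libraries. Of the 4 SAGA module partner genes tested, 0 passed, with ATXN7L3 at 0.03 (adjusted p = 0.740) and ENY2 at 0.00842 (adjusted p = 0.904).

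USP21 acts on histone H2A and on signalling proteins. It had 5.54, 5.27 and 5.04 FPKM in shTRIM15 and 4.31, 4.56 and 4.36 FPKM in shcontrol, with no overlap. Means were 5.28 ± 0.248 FPKM in shTRIM15 and 4.41 ± 0.134 FPKM in shcontrol (SD, n = 3 each), 19.8% higher, with a log2 fold change of 0.22 (SE 0.0456, adjusted p = 0.0189). The call was lost without shTRIM15 library 1 (adjusted p = 0.0625) or 2 (0.0585) and without shcontrol library 1 (0.0549) or 3 (0.0566). USP16, which acts on H2A, was at -0.12 (adjusted p = 0.0920), and USP3 and USP49 were at -0.05 and -0.03. USP44, an H2B enzyme, had 2 to 6 reads in shTRIM15 and 3 to 5 reads in shcontrol and was not tested.

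USP54 rose and USP39 and USP53 did not pass. These 3 were long listed as lacking protease activity, and USP39 is a component of the spliceosome. USP54 had 3.63, 3.77 and 3.60 FPKM in shTRIM15 and 3.07, 3.05 and 2.98 FPKM in shcontrol. The lowest shTRIM15 library lay well above the highest shcontrol library, and USP54 changed by 0.21 on the log2 scale (SE 0.0428, adjusted p = 0.0164), a 20.9% rise. It was lost without shTRIM15 library 2 (adjusted p = 0.0603) or shcontrol library 3 (0.0501). The antisense gene PPP3CB-AS1 shares 16.1% of the USP54 exon bases, with a mean of 0.673 FPKM over all libraries. USP39 had 28.3, 28.1 and 28.6 FPKM in shTRIM15 and 27.1, 26.5 and 26.7 FPKM in shcontrol. Its groups did not overlap, and its log2 fold change of 0.08 (SE 0.0225) missed the threshold narrowly (adjusted p = 0.0518). USP53, linked to tight junctions, was at -0.04 (adjusted p = 0.578).

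Of the enzymes placed on endosomes, endoplasmic reticulum or mitochondria, USP19 rose by a small amount. USP19 has a splice form anchored in the endoplasmic reticulum membrane. It had 22.2, 22.0 and 23.3 FPKM in shTRIM15 and 20.7, 20.8 and 19.2 FPKM in shcontrol. The groups did not overlap, and USP19 changed by 0.15 on the log2 scale (SE 0.0398, adjusted p = 0.0455), a rise of 11.1%. It was lost when any 1 of the 6 libraries was left out (adjusted p from 0.0651 to 0.134). USP8, which strips ubiquitin from receptors such as EGFR on endosomes, had 1.75, 1.88 and 1.62 FPKM in shTRIM15 and 2.07, 2.14 and 2.09 FPKM in shcontrol. Its log2 fold change was -0.18 (adjusted p = 0.0881), and voom gave an adjusted p of 0.000280. USP30, on the mitochondrial outer membrane, was at -0.04 (adjusted p = 0.676).

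Of a list of 6 enzymes grouped as large (USP9X, USP24, USP34, USP40, USP47 and USP48), USP48 fell and the other 5 did not pass. The list does not hold all long members, since USP48 has 1047 codons and USP54 and USP19, which rose, have 1684 and 1419. USP48 is a nuclear deubiquitinase that counters BRCA1-dependent ubiquitination of H2A. It had 7.33, 7.68 and 6.72 FPKM in shTRIM15 and 8.07, 8.61 and 8.50 FPKM in shcontrol. The groups did not overlap, and USP48 changed by -0.19 on the log2 scale (SE 0.0517, adjusted p = 0.0454), a level 13.7% lower by means. The call was lost in 5 of the 6 fits that left out 1 library (adjusted p from 0.0596 to 0.126), all except that without shTRIM15 library 2. USP24 and USP34 were at -0.11 (adjusted p = 0.101) and -0.12 (adjusted p = 0.0602), and voom put both past the threshold. USP34 acts on axin in Wnt signalling. It shares 18.0% of its exon bases with AHSA2P, a pseudogene on the other strand with a mean of 4.92 FPKM. USP40 was at 0.11 (adjusted p = 0.0778), USP47 at -0.08 (adjusted p = 0.243) and USP9X at -0.03 (adjusted p = 0.528).

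None of the 3 enzymes bound to the proteasome or recycling free ubiquitin chains passed. USP5, which takes apart unanchored chains, had 50.1, 53.3 and 54.6 FPKM in shTRIM15 and 54.1, 54.1 and 53.9 FPKM in shcontrol (log2 fold change -0.04, adjusted p = 0.485). USP14 had 16.7, 16.9 and 16.8 FPKM in shTRIM15 and 17.8, 18.2 and 17.8 FPKM in shcontrol. Its groups did not overlap, and its log2 fold change was -0.09 (adjusted p = 0.0545). USP13, the paralogue of USP5, was at -0.07 (adjusted p = 0.522).

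The 5 enzymes tied to p53 and MDM2 also did not pass. USP7, which removes ubiquitin from both proteins, averaged 15.6 ± 0.475 FPKM in shTRIM15 and 15.6 ± 0.601 FPKM in shcontrol (SD, n = 3 each), with an interval of -0.09 to 0.09 on the log2 scale (adjusted p = 0.993). USP10 (-0.05), USP2 (-0.08), USP42 (0.04) and USP47 (-0.08) had adjusted p from 0.243 to 0.603. The paralogues USP25 (-0.11) and USP28 (0.07) and the pair USP20 (0.06) and USP33 (-0.09) did not pass either. USP36, a nucleolar enzyme, was at 0.08, and USP37, a cell cycle enzyme, at 0.04. USP37 shares 32.8% of its exon bases with VIL1, a gene on the other strand with a mean of 69.4 FPKM, so its level is uncertain if counting ignored strand. USP18, which removes the ubiquitin-like protein ISG15, was at -0.07 (adjusted p = 0.664). The remaining tested genes, USP31, USP32, USP35, USP38, USP43, USP45 and USP6NL, lay between -0.10 (USP45) and 0.16 (USP35), and none passed.

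The 44 tested USP genes spanned mean levels of 0.572 FPKM (USP49) to 59.4 FPKM (USP22) over the 6 libraries, with a median of 5.18 FPKM. The median over all tested genes was 4.71 FPKM. FPKM is per gene length, here that of all annotated exons, so levels of different genes compare only roughly. USP15 averaged 865 reads and 2.43 FPKM over 19418 bases, and USP21 335 reads and 4.85 FPKM over 3764 bases. The sum over the family was 447, 458 and 453 FPKM in shTRIM15 and 454, 461 and 462 FPKM in shcontrol, and the groups overlapped. USP22, USP5 and USP39 together made up 31.4% to 32.1% of that sum in shTRIM15 and 29.7% to 30.2% in shcontrol. The spread between replicates was small, with a median coefficient of variation of 4.08% and a range of 0.218% to 18.0%. USP22 lay above USP5 in every library, and USP5 above USP39. Some neighbours lower in the order were closer. USP14 and USP1 averaged 16.8 ± 0.0989 and 16.1 ± 0.231 FPKM in shTRIM15, and 17.9 ± 0.262 and 17.4 ± 0.778 FPKM in shcontrol. Their libraries overlapped in shcontrol but not in shTRIM15.

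**Figure D4:**
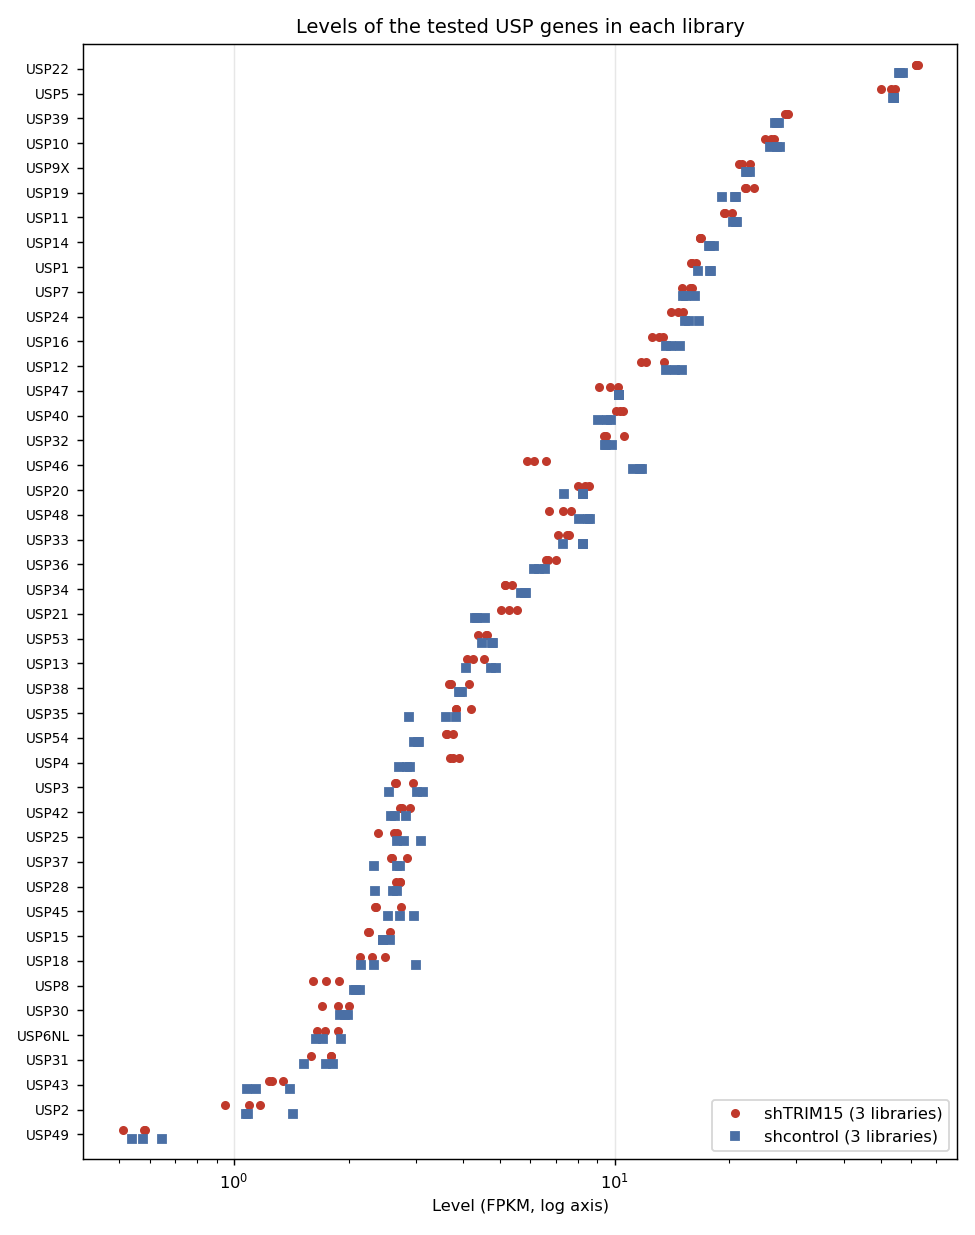
Level (x axis, FPKM, log axis) of the 44 tested USP genes in each of 3 shTRIM15 (circles) and 3 shcontrol (squares) libraries, ordered by mean level. Points of one gene lie close together, and the groups separate most at USP46.

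The 8 USP genes not tested had few or no reads. USP6, known as a fusion oncogene, had 25, 17 and 8 reads in shTRIM15 and 9, 19 and 17 reads in shcontrol. USP50 had 1 read in each shTRIM15 library and 1, 1 and 0 reads in shcontrol. USP41 had 0 reads in shTRIM15 and 0, 1 and 0 reads in shcontrol. It shares 40.7% of its 50-base words with other genes, 31.1% with USP18, so its reads cannot be assigned with certainty. USP51 and the testis-type genes USP26 and USP29 had 0 reads in all 6 libraries. A count of 0 allows up to 3 reads by a 1-sided Poisson 95% limit, and 3.69 reads by the 2-sided one. Across libraries, 3 reads are 0.0345 to 0.0388 FPKM for USP51, 0.0366 to 0.0412 FPKM for USP26 and 0.0390 to 0.0439 FPKM for USP29. These limits are for counting error only.

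The 3 members that passed in every fit share little sequence with copies elsewhere. USP46 shared 0.0653% of its 50-base words with other genes, USP4 0.902% and USP22 1.28%. The share was higher for USP18 (23.4%), USP31 (22.7%), USP32 (18.3%) and USP12 (5.97%, including the pseudogene USP12PX), whose levels are less certain. USP46 was 1 of 17 USP genes with a gene starting within 1000 bases on the other strand. Of the 6 such partner genes that were tested, 2 passed, too few to compare with the 19.0% of all tested genes that passed. CDCA3, beside USP5, had a log2 fold change of -0.15 (adjusted p = 0.0450), and TMEM150A, beside USP39, 0.29 (adjusted p = 0.0238), while neither USP5 nor USP39 passed. With 1 library left out, the CDCA3 call was lost in all 6 fits and the TMEM150A call in 4.

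The annotated 3′ UTRs, the region where many RNA-binding factors and miRNAs act, were long in the family. In GENCODE 29, for the transcript with the longest coding sequence, their median was 1609.5 bases over the 44 tested USP genes and 972 bases over 11647 tested protein-coding genes. USP46 has 6671 bases and USP48 53 bases, so the members that fell differ widely. The 5 that rose differ widely too, from 190 to 3441 bases with a median of 270.0 bases. Over protein-coding genes, the median was 860 bases for those that rose and 1633 bases for those that fell. Spearman's rho between UTR length and log2 fold change was -0.195 over the 44 USP genes and -0.137 over the 11647 genes. Both are given as descriptions across genes of the same 6 libraries.

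RefSeq promoter windows of 300 bases were matched for 40 of the 52 USP genes. They held a median of 70.0% G and C, against 58.7% over 35116 promoters, and a median of 34 CpG pairs, against 14. The GC box was in 32 of the 40 (80.0%), against 45.0% of all windows. The 35116 windows were not limited to the protein-coding genes tested here. The differences from them therefore do not set USP genes apart from other expressed protein-coding genes. All motifs were searched on both strands and independently, so matches of different motifs may overlap. The ETS letters CCGGAAG were in 10 (25%), against 10.3%, the NRF1 core GCGCATG in 4 (10.0%), against 4.43%, CCAAT in 11 (27.5%), against 34.6%, and TATAAA in 2 (5.00%), against 11.5%. The FOXO letters GTAAACA were in 0, against 3.42%. A match gives only the letters and does not show a factor bound there.

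Lists of other deubiquitinase families were measured in the same libraries. They go by family and symbol, not by shown enzyme activity. Of 37 tested genes on them, all outside the symbol rule used here, 13 passed (35.1%, beside 19.0% of all tested genes). By direction, 4 were higher (10.8%, beside 8.93%) and 9 lower (24.3%, beside 10.1%). The median log2 fold change of the 37 was -0.00244. Of the OTU family OTUD1 (-0.31), OTUD4 (-0.25) and YOD1 (-0.24) fell and OTUD7B (0.13) rose. Of the UCH family BAP1, the H2A deubiquitinase, fell with 12.7, 13.1 and 13.2 FPKM in shTRIM15 and 15.6, 16.9 and 16.5 FPKM in shcontrol (log2 fold change -0.31, SE 0.0359, adjusted p = 0.00201), and the proteasome-bound UCHL5 fell too (-0.20). Of the metalloprotease-type JAMM family MPND (0.38) and the translation factor EIF3F (0.25) rose, and BRCC3 (-0.24), PSMD14 (-0.12) and PRPF8 (-0.11) fell. JOSD2 rose (0.26) and MINDY2 fell (-0.31), while ZUP1, CYLD and USPL1 did not pass. OTUD1, OTUD4, BAP1, BRCC3, MPND and EIF3F passed in all 14 alternative fits. OTUD7B, YOD1, UCHL5, JOSD2, PSMD14, PRPF8 and MINDY2 each lost the call in 5 to 8 of them, 3 to 5 of these being fits with 1 library left out. Whether the USP genes differ from those on these lists was not tested.

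The calls differed in how they held across the 15 fits (the fit described and 14 alternatives). USP46, USP4 and USP22 passed in all 15. USP12, USP14, USP1, USP39, USP8, USP24, USP34, USP16 and USP40 passed in at least 1 alternative without passing the fit described, as the plot of calls by setting shows.

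**Figure D5:**
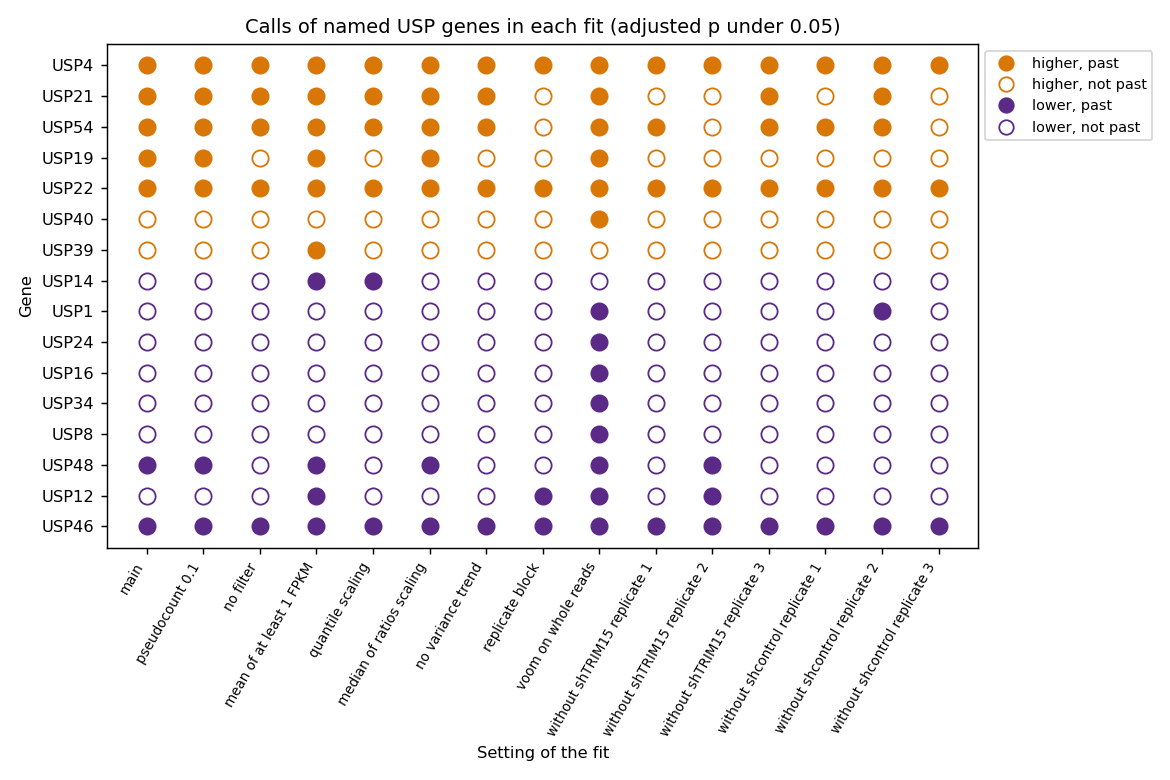
Calls of the named USP genes that passed in at least 1 fit (y axis) in each of 15 settings of the fit (x axis). Filled circles mark an adjusted p under 0.05, with colour for the direction. USP46, USP4 and USP22 are filled in all 15 settings, and no gene changes direction.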

How the data were processed

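The authors deposited FPKM values per gene for 6 libraries of a directional kit, per the labels. Aligner and counting are not given in the sources used here. The submitters' processing notes name build mm10, a mouse build, but gene identifiers are human, and start, end and strand of 58724 of the 58735 rows, and of all 52 USP genes, equal GENCODE 29 on GRCh38. Whole reads were recovered by dividing FPKM times gene length by the worth of 1 read in each library, and 100% of the quotients were whole (tolerance 0.01 reads). All 6 columns were matched to samples, leaving 0 without one.

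Genes with at least 0.5 FPKM in 3 or more libraries were fitted as log2(FPKM + 1), which understates the change of low genes, with limma 3.58.1 (R 4.3.3, mean-variance trend, 2-sided), shTRIM15 against shcontrol. P-values were adjusted over all 14847 tested genes by Benjamini-Hochberg (threshold 0.05). Steps were tested on simulated data. Text names USP genes past the threshold, the 3 highest, and paralogues or partners of those called, and up to 4 genes per other list. Library values of USP14 and the PHLPP genes were added after they were seen. Members and lists were chosen with earlier results of these data known. Alternatives changed pseudocount, filter, scaling, trend, block and library set, and used voom on whole reads. Intervals on reads are exact 2-sided Poisson 95% and cover counting error only, and the limit of 3 reads at a count of 0 is 1-sided. Sequences came from RefSeq.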

Additional observations from a re-analysis of the deposited data

How the results depend on the processing

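No gene named here as past the threshold changed direction in the 14 alternatives. Of genes not past it, 6 tested USP genes and 4 partner genes changed sign near 0. With 1 library left out, the log2 fold change ran from -0.0208 to 0.0285 for USP7, -0.0190 to 0.0609 for USP32, -0.0118 to 0.0683 for USP37, -0.14 to 0.0289 for USP18, -0.0330 to 0.0377 for USP6NL, -0.0279 to 0.0531 for USP31, -0.00479 to 0.0424 for WDR48, -0.11 to 0.00620 for DMWD, -0.00767 to 0.0842 for ATXN7L3 and -0.0162 to 0.0250 for ENY2. Quantile scaling gave 0.00466 for USP7 and 0.00744 for USP6NL, and voom 0.000642 for USP6NL. The cause of these was not tested. With 1 library left out, the USP genes past the threshold ranged from 2 to 4 higher and 1 to 3 lower, and all tested genes from 792 to 1115 higher and 978 to 1224 lower; these fits have fewer samples. For other deubiquitinases the same fits gave 2 to 4 higher and 4 to 7 lower. The lower USP genes, 2 in the fit described, were 1 with no filter, 1 with no trend, 4 with a mean of at least 1 FPKM and 8 with voom on whole reads, and the cause was not tested. For other deubiquitinases, 2 were higher with no filter and 2 with no trend. A fit with the replicate block gave 2 higher and 2 lower USP genes, 883 higher and 1030 lower genes in all, and 5 lower other deubiquitinases; USP21, USP54, USP19 and USP48 had adjusted p of 0.0556, 0.0564, 0.113 and 0.0750 there. Numbers were not treated as pairs, since deviations of same-numbered libraries correlated at 0.00862 to 0.0133. USP19 and USP48 also lost the call with no filter, quantile scaling and no trend. TRIM15 passed throughout at -0.97 to -0.65. Leaving out USP6NL kept the counts at 5 higher and 2 lower, an alternative chosen after seeing the data. Depth limits the 8 genes not tested and the changes of low genes.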
